A study of Homo sapiens with 4 samples.

Results

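Complement is a cascade of blood and tissue proteins that tag cells and microbes for destruction, and membrane proteins on host cells hold it in check. The genes described here are 9 of that system, C3, CFB, C1R, C1S, C5, CFI, CD46, CD55 and CD59, found by gene name among the 60623 genes of the deposited table, with 1 row for each name. They were chosen by name with values of this same comparison already known, the C3 difference among them, so their differences between groups are given as a description and support nothing. No value threshold was used. RNA was read from T24, an established line of human bladder carcinoma cells, in 2 libraries of cells given a scramble control and 2 of cells given miR-146a-5p (as a transfected mimic in the series' design text, as overexpression in the sample labels). Both groups come from that 1 line, and no label says whether the 2 libraries of a group are separate cultures. Any p then measures only the spread between libraries, which may be technical.

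In the cascade, C1R and C1S are the proteases of the first component, C3 is the protein on which all activation routes meet, CFB supplies the protease of the alternative route, and C5 starts the pore that opens membranes. CFI is a soluble protease that cuts active C3 fragments. CD46 serves as its cofactor on the cell surface, CD55 speeds the decay of the enzymes that cut C3, and CD59 blocks the final pore. The liver makes most of the circulating components, while epithelial cells also make several of them, and inflammatory cytokines are well known to raise C3 and CFB in such cells. MicroRNAs of the miR-146 family act against IRAK1 and TRAF6, which relay signals from inflammatory receptors.

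The mature microRNA is printed because its seed is what a target must pair with. The sequence is from RefSeq (GRCh38.p14, chr5:160485372-160485393, plus strand), with bases 2 to 8, the seed, in capitals.
hsa-miR-146a-5p: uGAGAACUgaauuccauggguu

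A match to the seed (AGTTCTC, or GTTCTCA) was found in the 3' UTR of 1 of the 9 genes. That gene was CD59, whose 3' UTR of 7116 bases in GENCODE 29 holds 1 match of 7 bases. The 3' UTRs of the other 8 genes held none, and they were between 54 bases (CFB) and 2036 bases (CD46) long, with 178 bases for C3. For each gene only 1 transcript was searched, the longest protein-coding one, so matches in other transcripts would be missed. Among the 12336 tested genes with an annotated 3' UTR, whose median length was 1328 bases, 21.0% held a match. The CD59 site is shown with the first of the 2 sites in IRAK1, the textbook target, for comparison (GRCh38, both on the minus strand, chr11:33707265-33707271 and chrX:154011812-154011819, match in capitals).
CD59: tatacatctgAGTTCTCttggtaagtt
IRAK1: cggaagtcaaAGTTCTCAtggtcagaag

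IRAK1, read as a check on the labels, was at 499 and 717 CPM (counts scaled by library size) in the scramble libraries and at 109 and 109 CPM with miR-146a-5p, so it was lower in both libraries given the microRNA. CD59, the 1 gene of the 9 with a seed match, was at 511 and 513 CPM in scramble and at 646 and 632 CPM with miR-146a-5p. That difference was not called by edgeR (adjusted p 0.97), and its log2 fold change was 0.32, or 0.18 with offsets for GC content and length. Whether the microRNA acts on CD59 was not tested.

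The 2 scramble libraries were unlike each other. A gap over 2-fold was seen in 23.5% of tested genes for the scramble pair and in 2.71% for the other pair, and scramble replicate 2 read low in transcripts poor in G and C. With tested genes ordered by GC content and cut into 5 bins of like size, its median difference from scramble replicate 1 was -1.53 (log2 CPM) in the GC-poorest bin (27.8% to 40.8%) and 0.51 in the GC-richest. Library totals lay between 20290055 and 22774090 estimated counts. The epithelial keratins KRT8 (1150 to 1540 CPM) and KRT18 (579 to 1160 CPM) were high in all 4 libraries and made up most of the epithelial sum of 1910 and 2750 CPM in scramble and 1930 and 1740 CPM with miR-146a-5p. KRT19 was at 31.9 and 42.6 CPM against 15.9 and 14.4 CPM and EPCAM at 0.85 and 0.879 CPM against 1.5 and 1.47 CPM, while CDH1, the epithelial cadherin, had 0 and 2 counts against 0 and 1. Of the urothelial markers 2 of 9 passed the filter on low counts, UPK3A and KRT5 had 0 counts in each library, and the summed level was 41.4 and 46.3 CPM in scramble and 29.4 and 29.7 CPM with miR-146a-5p. Most of that sum was PPARG (40.8 and 45.5 CPM against 28.7 and 28.1 CPM), while GATA3 was at 0.268 and 0.22 CPM against 0.514 and 1.22 CPM. Of the markers of the liver, 6 of 10 had 0 counts, ALB had 0 and 0 counts in scramble and 2 and 1 with miR-146a-5p, and the summed level was 13.4 and 18.1 CPM against 25.1 and 24.5 CPM, most of it SERPINA1. Fibroblast markers (2 of 8 tested) summed to 3.36 and 4.0 CPM against 5.89 and 6.86 CPM, leukocyte markers (2 of 9 tested) to 12.7 and 16.3 CPM against 17.3 and 13.3 CPM, and endothelial markers to at most 0.588 CPM. The part of those marker sums in the differences below was not tested.

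Levels of the 9 genes relative to one another are given in TPM, transcript abundance scaled by gene length and by library. CD59 was the most abundant, with 430.52 and 402.91 TPM in scramble (replicate 1 first, as in all pairs of values here) and 549.39 and 550.18 TPM with miR-146a-5p. It ranked between 228 and 303 among all genes of each library. CD46 had 70.51 and 12.45 TPM in scramble and 88.26 and 92.59 TPM with miR-146a-5p. CD55 had 34.16 and 22.38 TPM in scramble and 22.97 and 24.17 TPM with miR-146a-5p. The order of CD46 and CD55 in scramble was not settled, because CD46 was above CD55 in replicate 1 and below it in replicate 2. With miR-146a-5p both CD46 libraries were above both CD55 libraries.

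The soluble components were lower in level. In scramble cells the order below CD55 was C1R (6.96 and 6.15 TPM), C3 (3.55 and 4.50 TPM), CFB (2.51 and 2.25 TPM), C1S (2.27 and 1.54 TPM), C5 (0.99 and 0.09 TPM) and CFI (0.23 and 0.17 TPM). The libraries of CFB and C1S overlapped in that order, and so did those of C5 and CFI. With miR-146a-5p C3 stood at 54.75 and 57.61 TPM, above CD55 and all the other components, and its rank among all genes went from 10715 and 9184 to 2355 and 2270. C1R followed with 13.76 and 12.18 TPM, CFB with 8.67 and 11.44 TPM and C1S with 6.75 and 5.63 TPM. C5 (0.74 and 0.91 TPM) and CFI (0.05 and 0.07 TPM) stayed the lowest of the 9.

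**Figure D1:**
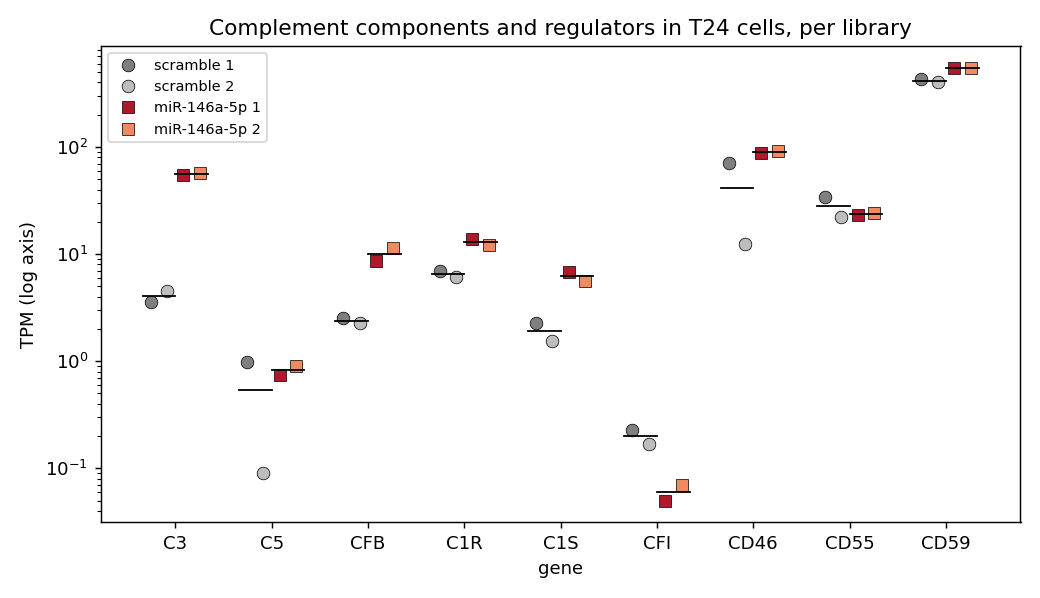
TPM of each gene in each of the 4 libraries on a log axis, with scramble as grey circles, miR-146a-5p as red squares and a line at the mean of each group of 2. C3 goes from 3.55 and 4.50 TPM to 54.75 and 57.61 TPM, while the 2 scramble points of CD46 and of C5 lie far apart.

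C3 was the member with the widest separation between groups. The scramble libraries held 150 and 281 counts of it, and those given miR-146a-5p held 3294 and 2944. Both miR-146a-5p libraries lay far above both scramble libraries, and the lower scramble value was in replicate 1. C3 was at 9.53 ± 3.99 CPM in scramble and 149 ± 6.90 CPM with miR-146a-5p (SD, n = 2 each), and its log2 fold change by edgeR was 3.97 ± 0.39 (SE), rank 5 from the top among the 14810 tested genes. Against 1 scramble library at a time it was 4.49 without scramble replicate 2 and 3.59 without scramble replicate 1. In TPM the ratio of the means was 13.96. In a bulk library a change in the share of cells that make C3 and a change in the RNA each cell makes cannot be told apart.

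CFB had 68 and 93.96 counts in scramble and 315 and 267 with miR-146a-5p. The groups were again separate. In CPM it went from 3.59 ± 0.77 to 13.9 ± 1.16 (SD, n = 2 each), a log2 fold change of 1.95 ± 0.28 (SE, edgeR), with 2.20 without scramble replicate 2 and 1.75 without scramble replicate 1. CFB lies on chromosome 6 (GRCh38, from 31945650 to 31952084, plus strand) and overlaps the last 23 bases of C2, the matching protease of the classical route. C2 had 0 and 0 counts in scramble and 8 and 3 with miR-146a-5p, and the read-through gene AL645922.1 that covers both had at most 2.04 counts. Both are few beside the counts of CFB.

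The proteases of the first component both lay higher with miR-146a-5p. C1S had 79 and 79 counts in scramble and 251 and 159 with miR-146a-5p, or 3.50 ± 0.04 and 9.76 ± 2.79 CPM (SD, n = 2 each), and here the spread was on the miR-146a-5p side. C1R had 204.4 and 258.5 counts in scramble and 506.6 and 401.47 with miR-146a-5p, or 10.2 ± 1.57 and 21.7 ± 2.87 CPM. Both miR-146a-5p libraries were above both scramble libraries for each gene. The log2 fold changes were 1.48 ± 0.31 for C1S and 1.08 ± 0.25 for C1R (SE, edgeR). With 1 library left out, C1S ranged in edgeR from 1.17 (without miR-146a-5p replicate 1) to 1.74 (without miR-146a-5p replicate 2). C1R ranged from 0.94 (without scramble replicate 1) to 1.26 (without scramble replicate 2). The pair are neighbours on chromosome 12 in GENCODE 29, with C1S from 6988259 to 7071032 on the plus strand, C1R from 7080199 to 7092607 on the minus strand and 9166 bases between them. The ratio of C1R to C1S within a library was 3.07 and 3.99 in scramble and 2.04 and 2.16 with miR-146a-5p (TPM). In counts the groups lay closer in that ratio. C1S had 79 counts in both scramble libraries but 2.27 and 1.54 TPM. C1R overlaps C1RL, a related protease gene on the same strand that had between 261.08 and 316.97 counts in every library, and both have fractional counts, and no source used here states how shared reads were split. C1S overlaps EMG1 on the same strand, which had between 1539.11 and 1951.46 counts.

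In counts and CPM, the groups of C5 and of CFI overlapped. C5 had 50 and 10 counts in scramble and 56 and 38 with miR-146a-5p, so the miR-146a-5p values were on either side of scramble replicate 1. Its log2 fold change was 0.74 ± 0.81 (SE, edgeR) with 4 libraries, 0.02 without scramble replicate 2 and 2.34 without scramble replicate 1. CFI had 8 and 1.43 counts in scramble and 1 and 2 with miR-146a-5p, did not pass the filter on low counts and was the 1 member of the 9 left out of the edgeR fit. In TPM the CFI groups did not overlap, with 0.23 and 0.17 in scramble and 0.05 and 0.07 with miR-146a-5p, but at these counts a difference in CFI was not detectable.

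Among the membrane regulators the libraries of CD46 were the most scattered. CD46 had 3551 and 742 counts in scramble and 4314 and 4457 with miR-146a-5p. The scramble pair differed 4.87-fold in CPM, with 159 and 32.6 against 202 and 218 CPM. The log2 fold change was 1.13 ± 0.77 (SE, edgeR), and it went to 0.42 without scramble replicate 2 and to 2.69 without scramble replicate 1. CD59, with 511.9 ± 1.86 and 639 ± 10.4 CPM (SD, n = 2 each), had a log2 fold change of 0.32 ± 0.13, and the value lay between 0.32 and 0.34 with any 1 library left out. With offsets for GC content and length it was 0.18. CD55 had 1188 and 836 counts in scramble and 877 and 758 with miR-146a-5p, and in CPM the scramble values of 53.2 and 36.7 enclosed those with miR-146a-5p, 41.0 and 37.1. Its log2 fold change was -0.20 ± 0.27, with -0.43 without scramble replicate 2 and 0.09 without scramble replicate 1, so its sign depended on which scramble library was used.

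**Figure D2:**
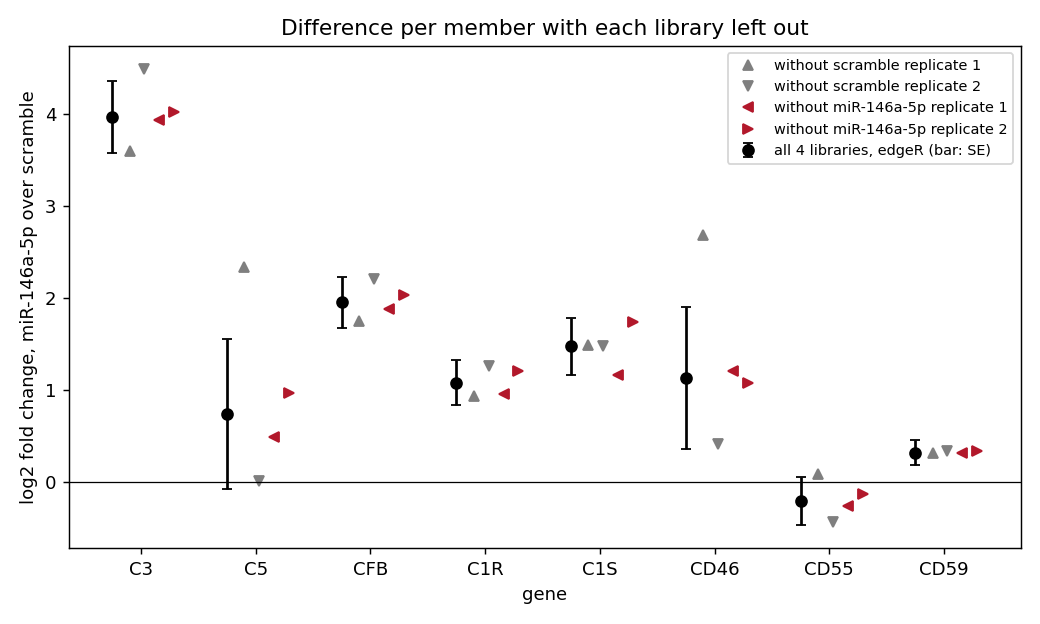
Log2 fold change of miR-146a-5p over scramble for the 8 genes in the edgeR fit, with the value from 4 libraries as a black point with its SE and the value with each library left out as triangles. C3 moves between 3.59 and 4.49, CFB between 1.75 and 2.20, C1R between 0.94 and 1.26 and C1S between 1.17 and 1.74. CD46 moves between 0.42 and 2.69 and C5 between 0.02 and 2.34.

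The GC content of each gene's longest transcript was set beside the gap between the scramble libraries. CD46 (37.7% GC), C5 (39.9%) and CFI (40.7%) are in the GC-poorest bin, and their gaps, scramble replicate 2 minus replicate 1, were -2.28, -2.13 and -1.73 (log2 CPM). Those were the 3 members with a gap over 2-fold, while no member had such a gap within the miR-146a-5p pair. CD55 (41.4%) had a gap of -0.53 and C1S (47.9%) of -0.02. C3 (56.5%), C1R (55.3%) and CFB (53.2%) had gaps of 0.87, 0.31 and 0.43, the other way. With offsets that remove each library's trend with GC content and length, the log2 fold change of CD46 was 0.88, that of C5 0.55 and that of CD55 -0.52, while C3 was at 4.07, CFB at 2.02, C1S at 1.48 and C1R at 1.18.

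**Figure D3:**
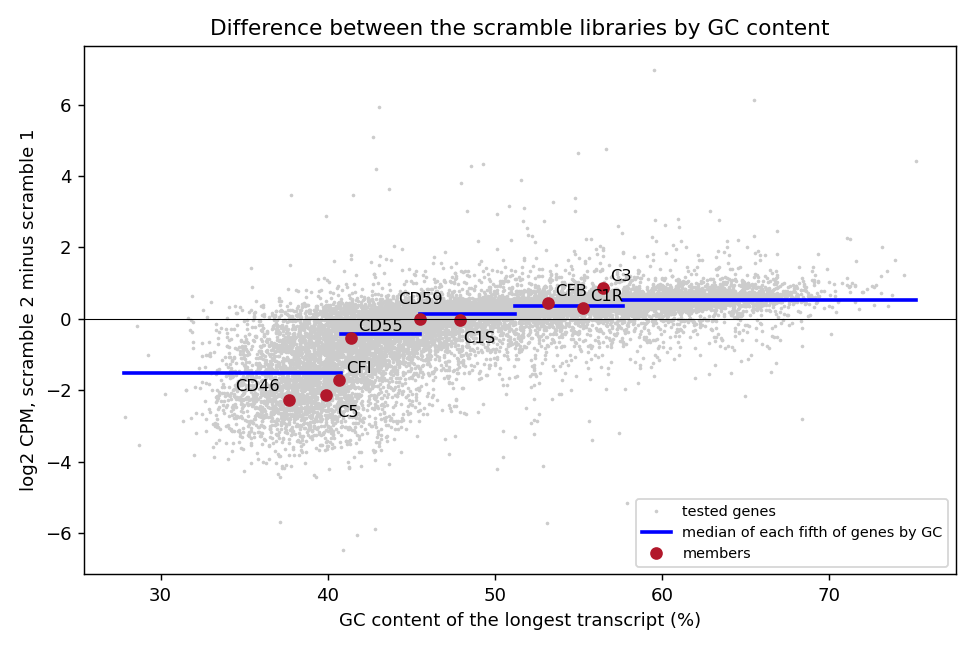
Difference in log2 CPM between the scramble libraries (replicate 2 minus replicate 1) against the GC content of the longest transcript, for all tested genes (grey), with the median of each of the 5 GC bins (blue lines) and the 9 members (red). CD46, C5 and CFI lie in the GC-poor part, at -1.73 or below.

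Counted over the 8 members in the edgeR fit, 6 (C3, CFB, C1R, C1S, CD46 and CD59) had both miR-146a-5p libraries above both scramble libraries, as did 18.0% of tested genes. There were 0 below both, as were 17.9% of tested genes, and 2 (C5 and CD55) overlapped. The median log2 fold change of those 8 was 1.11, and that of all tested genes was -0.0014. After adjustment over all genes, edgeR's quasi-likelihood test called 0 of the 8 (0.0% of all tested genes), with 4 of the 8 and 549 genes in all at an unadjusted p under 0.05. DESeq2 called C3 and CFB higher (0.274% of its tested genes) and no member lower (0.0499% of its tested genes). The authors' deposited table marks the same 2 members. Because the members were picked with this contrast in view, nothing is read from these counts. The DESeq2 call of CFB was lost without either miR-146a-5p library, with log2 fold changes of 1.85 and 2.01 against 1.94 with 4 libraries. With 1 library left out, the DESeq2 log2 fold change of C3 was between 3.59 and 4.48, against 3.95 with 4 libraries.

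Set side by side, the summed level of the membrane regulators CD46, CD55 and CD59 was 535 and 438 TPM in scramble and 661 and 667 TPM with miR-146a-5p. The sum of C3, CFB, C1R, C1S and C5 was 16.3 and 14.5 TPM in scramble and 84.7 and 87.8 TPM with miR-146a-5p. The regulators exceeded the components 32.9-fold and 30.1-fold in the scramble libraries and 7.80-fold and 7.60-fold in the miR-146a-5p libraries. C3 made up 21.8% and 31.0% of the component sum in scramble and 64.7% and 65.6% with miR-146a-5p. Relative to CFB, its partner in the alternative route, C3 stood at 1.41 and 2.00 in scramble and at 6.31 and 5.04 with miR-146a-5p (ratio of TPM). These are ratios of RNA, and protein was not measured.

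Of 55 other complement genes, listed by function, 34 had at most 3 counts in each library, 23 of them with 0 in all 4, and 11 passed the filter on low counts. None of the 11 was called by edgeR and none of the 55 by DESeq2. The 2 genes CLU and THBD had an unadjusted p under 0.05 in either test, as did 549 genes in all in edgeR and 434 in DESeq2. Among the 11, MASP2 and LRP1 were higher with miR-146a-5p without overlap in CPM, as were 18.0% of all tested genes. The margin of LRP1 is hidden by rounding (137 against 137 CPM). C4A, CLU, THBD, ITGB2 and C1QBP were lower without overlap, as were 17.9% of all tested genes, and the other 4 overlapped. In TPM the groups of MASP2 (0.4 and 0.09 against 0.48 and 0.4) and C4A (0.32 and 0.4 against 0.1 and 0.45) were not separate, and those of CALR were, with miR-146a-5p higher. Their median log2 fold change was -0.27. No component of the terminal pore after C5 (C6 to C9) passed, and the highest count among them was 3. The C1Q chains, C1QA, C1QB and C1QC, which with C1R and C1S form the first component, had 0 counts, as did SERPING1, the inhibitor of C1R and C1S. The C1Q chains, C2 and CD109 were singled out after their values were seen.

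Among the other components, C4A had 12.5 and 10.77 counts in scramble and 6.05 and 8.09 with miR-146a-5p, and C4B had 4.5 and 4.23 against 5.95 and 9.91. These are near-identical copies, so the split between them is uncertain. MASP2, a protease of the lectin route, had 16 and 4 counts against 19 and 15. CFD, the protease that cuts bound CFB, had 17 and 35 counts against 23 and 17, and CFP, which stabilises the alternative route's enzyme, had 2 and 13 against 6 and 1. CD109, a relative of C3 and C5 that sits on the membrane, had 1871.54 and 446.63 counts against 1752.97 and 1613.93, again low in scramble replicate 2 alone.

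Among the other regulators, CLU, a soluble blocker of the pore, had 12.3 and 17.9 CPM in scramble and 7.90 and 9.11 CPM with miR-146a-5p. THBD, a membrane protein that aids the inactivation of C3 fragments, had 6.67 and 8.53 CPM against 4.39 and 3.72 CPM. Both genes were lower without overlap in CPM, with log2 fold changes of -0.83 ± 0.29 and -0.90 ± 0.27 (SE, edgeR), and were not called. In TPM the groups of CLU overlapped, with 17.17 and 29.22 in scramble and 17.6 and 21.15 with miR-146a-5p. CSMD3 had 22 and 4 counts against 11 and 12.

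The receptors for activated fragments were near the floor, with 5 and 10 counts in scramble and 4 and 5 with miR-146a-5p for C3AR1, the receptor of C3a, and 0 and 2 against 2 and 2 for C5AR1, the receptor of C5a. ITGB2, the shared chain of the complement receptors of leukocytes, had 127.7 and 184.92 counts against 68 and 103. C1QBP, CALR and LRP1, which bind complement proteins besides other roles, were abundant. They had 201 and 283 CPM, 745 and 932 CPM, and 106 and 137 CPM in scramble, against 174 and 176 CPM, 917 and 846 CPM, and 138 and 137 CPM with miR-146a-5p.

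By likeness over the 4 libraries, the 5 genes closest to C3 were CSF2 (distance 0.433), CXCL1 (1.18), CD69 (1.34), ELF3 (1.42) and MUC5AC (1.47). The measure is the Euclidean distance between log2 CPM values centred on each gene's own mean, for the 13266 genes whose mean reached 1 CPM. C3 was chosen with its group difference known, so genes near it share such a difference by construction, and no shared control is read from the order. CSF2 had 15 and 20 counts in scramble and 254 and 247 with miR-146a-5p. CD69 had 2 and 0 counts against 38 and 45, and MUC5AC had 5 and 7 against 51 and 37, so both were near the floor in scramble. Of the other members, CFB was nearest to C3, in place 23 of that order, followed by C1S in place 59 and C1R in place 111. CD46 was in place 340, C5 in place 1308, CD59 in place 1939 and CD55 in place 10640, and CFI was not ranked.

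**Figure D4:**
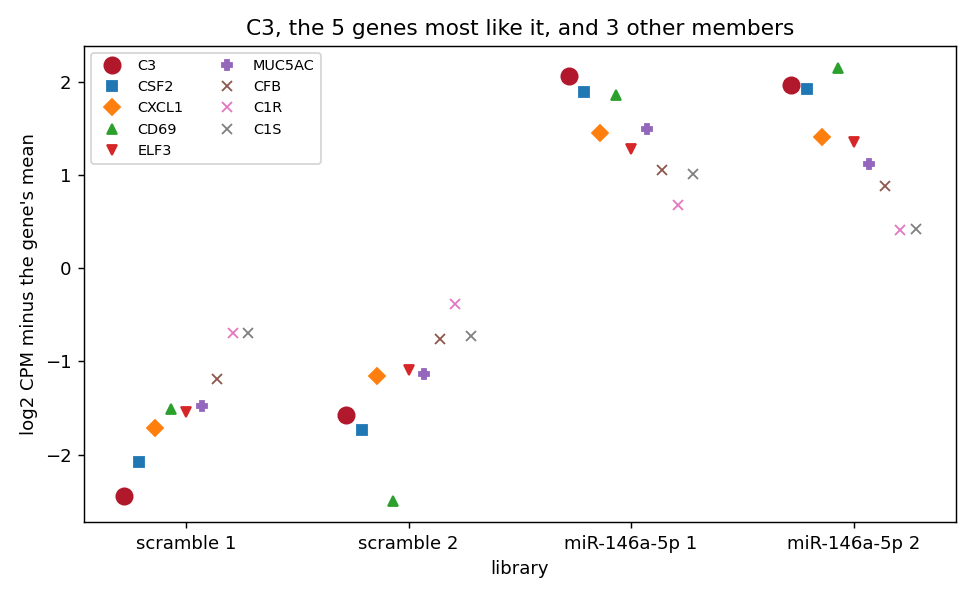
Log2 CPM minus the gene's mean over the 4 libraries for C3, the 5 genes closest to it and the members CFB, C1R and C1S, with points spread sideways within each library. All lie below 0 in both scramble libraries and above 0 in both miR-146a-5p libraries, with a smaller gap for the 3 members marked by crosses. The 5 genes were picked for likeness to C3, so they share its pattern by construction.

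The windows of 300 bases around annotated starts in RefSeq (GRCh38.p14) covered 7 of the 9 genes with 13 windows, with C3 and C1S named only. Motifs were searched on both strands. The 2 strict forms of the NF-kB site, held by 0.191% and 1.91% of all 35116 windows, had no match in the 13, and neither had TTGCGCAA (0.151% of all windows), a C/EBP form. A loose NF-kB form, GGG and CC with any 5 bases between, was in 10 of the 13 windows and 58.7% of all windows, and the loose C/EBP form TTNCNNAA was in 5 of 13 and 36.8% of all. TTCNNNGAA, a form bound by STAT proteins, was in 4 of 13 windows (CFB, CD59 and C1R) and 7.66% of all. Some windows of a gene overlap, so they are not separate observations, and a match is a description only. The CFB match is printed because CFB was the member with the second highest fold change, and it lies in chr6:31945983-31946012 on the plus strand, in capitals within 30 bases whose first is at position -112 from the start.
CFB: ggggccctcccgcttggatgTTCCGGGAAa

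CD46 and CD55 lie in the cluster of complement regulators on chromosome 1 (GRCh38), with CD55 from 207321376 to 207386804 and CD46 from 207752057 to 207795513, both on the plus strand. C3 lies on chromosome 19 from 6677704 to 6730562 on the minus strand, and CD59 on chromosome 11 from 33703010 to 33736491 on the minus strand. C3 overlaps GPR108 on the same strand, which had 408 and 477 counts in scramble and 518 and 468 with miR-146a-5p. Both genes had whole counts in each library. How any reads shared by the 2 genes were split is not stated in the sources used here. CD59 overlaps AL049629.2, an annotated protein-coding gene on the same strand with 523.69 and 514.15 counts in scramble and 674.54 and 536.01 with miR-146a-5p, so a small part of its counts is uncertain.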

How the data were processed

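The members and lists were chosen with earlier results of these data known. The deposited table holds estimated counts and TPM per library, and the authors' mean TPM per group, fold change as a ratio, log2 fold change, p-value and adjusted p-value, per the file headers. Fractional values made up 34.3% of the counts of genes seen in every library. Tools listed in the submitters' processing notes are HTSeq 0.6.1, HISAT2 2.0.1, cutadapt 1.9.1 and DESeq2, with the build hg19. The counting tool behind fractional values and the annotation release are not given in the sources used here.

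Counts were rounded. The main test was edgeR 4.0.16 in R 4.3.3 (quasi-likelihood, TMM, filterByExpr with a minimum count of 10 and total of 15, group as the only term, two-sided, Benjamini-Hochberg over 14810 genes, threshold 0.05), with SE from the F statistic. DESeq2 1.42.0 with default filtering was the alternative. Log2 CPM used a prior count of 2. The fits were also run on simulated counts with the same low spread for every gene and no trend with GC content. That setting is unlike the scramble pair here, so nothing is read from it. The library pairs of a group differed by more than sampling noise (chi-square per degree of freedom 175 and 6.88). Named genes were all members, every other complement gene passing the filter plus 9 fixed ones, and the 5 most like C3; a gene that this rule covers is not reported here. Coordinates are from GENCODE 29 (GRCh38), which holds 58516 of the gene identifiers, not from the authors' build. The deposited gene length was not used. Protein comparisons were not made.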

Additional observations from a re-analysis of the deposited data

How the results depend on the processing

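With 2 libraries a group, and the scramble pair unlike each other, single calls rest on the choice of test. Over all genes edgeR called 0, with 0 also under DESeq2's size factors, no filter on low counts, and GC and length offsets. DESeq2 called 52 genes, 2 of them members. With a library left out, in turn, edgeR called between 8 and 8421 genes and DESeq2 between 2 and 5349 (the DESeq2 series was added after seeing the data), the members called were between 1 and 7 in both, and the other complement genes called between 0 and 6 in edgeR and between 0 and 3 in DESeq2. The highest counts came without scramble replicate 1 (54.9% of tested genes by edgeR) and without scramble replicate 2 (21.7%), and DESeq2 called 1107 in the latter case. There the remaining scramble library takes its spread from the other group. The larger numbers of members and of other complement genes called came from those same fits, where the share of all genes called was also highest. Each fit with a library left out has 1 library in a group, so nothing is read from these numbers of calls. The median log2 fold change over the members was between 0.84 and 1.62 in edgeR and between 0.41 and 1.49 in DESeq2 with a library left out. With a library left out, CD55 ranged in edgeR from -0.4301 (without scramble replicate 2) to 0.0904 (without scramble replicate 1), and GC and length offsets put it at -0.5161. In DESeq2 without scramble replicate 1, CD55 was at 0.0826 and CFI at 0.71, where DESeq2 with 4 libraries gave CFI -1.51 and edgeR with no filter -1.40. The cause was not tested.

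The replicate numbers are not said to mark a shared culture, and the deviations of same-numbered libraries from their group means were correlated at -0.145 across genes. With the replicate number as a block, edgeR called 5 genes, 1 of them a member (C3), and 0 with the block and the GC and length offsets together.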
